A study of Mus musculus with 23 samples.

Results

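Cell division and DNA replication genes were examined in RNA that had been pulled down with phosphorylated ribosomal protein S6 (pS6) from mouse olfactory epithelium, the odor-sensing lining of the nose. The 39 members were a fixed list of genes of the cell cycle, taken from the 23481 gene symbols in each of the 23 libraries. They were listed by name, but with earlier results of these data known. S6 is a ribosomal protein that becomes phosphorylated in recently activated neurons, so the pull-down favors the RNA of such cells while keeping RNA of other cells. The mice were of strain c57BL/6, were at postnatal day 21, and were exposed for 1 h, and all 23 libraries were made from amplified cDNA with the Nextera kit. The TMT experiment (a predator odor also called trimethylthiazoline) held 12 libraries: control, 1% TMT and 100% TMT, each in litters 1 to 4. The acetophenone experiment held 11 libraries: control in litters 1 to 5, 1% acetophenone in litters 3 to 5 and 100% acetophenone in litters 1 to 3. No library was made without the pull-down among those analysed here, so a difference can lie in the amount of RNA, in its attachment to pS6 ribosomes or in the number of cells, and these cannot be told apart.

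The olfactory epithelium renews its neurons throughout life. Globose basal cells divide and give rise to immature and then mature neurons, while horizontal basal cells are mostly quiescent reserve stem cells, and mature neurons do not divide. A dividing cell first licenses its replication origins by loading the MCM helicase, then copies its DNA in S phase with the help of the PCNA clamp and a supply of deoxynucleotides, and then enters mitosis under cyclin B and Cdk1, with Aurora and Polo-like kinases, the spindle checkpoint, the kinetochore and kinesin motors carrying out the separation of the chromosomes. Many S-phase genes are targets of E2F factors, and many mitotic genes are switched on later through CHR and CCAAT elements near the start site.

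The members were expressed at low to moderate levels. Levels are given as CPM, that is, uniquely aligned counts scaled to a common library total after TMM normalization, which allows for differences in composition between libraries. Library totals ran between 2118099 and 9526932 unique counts, and in single libraries the 39 members together took between 885 and 2444 CPM. Averaged over the 23 libraries, the highest members in unique counts were Ezh2 and Rrm1. Ezh2, the histone methyltransferase of Polycomb repressive complex 2, was at 113 CPM, and Rrm1, the large subunit of ribonucleotide reductase, at 99.3 CPM. Mcm6, a subunit of the replicative helicase, followed at 98.6 CPM, then Cenpf, a large kinetochore protein, at 94.6 CPM, and the helicase subunit Mcm2 at 77.7 CPM. Per kilobase of the longest coding transcript, the order was led by Ccnb2 (cyclin B2) at 50.2 CPM per kb, Gmnn (geminin, the inhibitor of Cdt1) at 46.1 CPM per kb and Ezh2 at 40.5 CPM per kb. Cenpf, with a transcript of 11.1 kb, came to 8.50 CPM per kb.

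A few members could hardly be seen in the unique counts. Ccnb1 (cyclin B1) had 5 unique counts over all 23 libraries against 3219 estimated counts, which also take in reads with several alignments, and Pcna had 225 against 41206. Unique counts made up 13.0% of the estimated counts for Uhrf1, a chromatin protein that brings DNA methylation to new DNA, and 16.5% for Mcm7. For Cdc20, the activator of the anaphase-promoting complex, the share was 34.4%. For Rrm2 and Tyms it was 49.3% and 49.4%. The level of these members in unique counts is therefore too low beside the others, and which copies took the reads was not tested. In estimated counts Pcna exceeded Ezh2 in every library, at 1826 against 405 in TMT control litter 1. The orders given above, by level and per kilobase, hold for unique counts only. By the filter on low counts, 36 of the 39 members were tested in the TMT experiment, leaving out Ccnb1, Ccne2 and Uhrf1.

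The sequence before the start site was looked up for all members in RefSeq (GRCm38.p6), as the 250 bases before and 50 after the start, and 32 of the 39 had an entry. Aurkb, Ccna2, Ccne2, Exo1, Gmnn, Mcm4 and Tpx2 had none. Motifs were searched on both strands: the E2F type as TTGGCGC or TTCCCGC or TTCGCGC or TTGCCGC, the CHR as TTTGAA and the CCAAT box as CCAAT. The E2F type was found in 46.9% of the 32 members against 10.9% of 27025 genes in the table, the CHR in 40.6% against 20.2%, and the CCAAT box in 81.2% against 41.1%. A match only says that the letters are there. The promoters of the most abundant member, in unique counts, of the helicase, cyclin and chromosome structure roles are shown. Those of Cenpa and Ezh2 are shown because these members were called with TMT (chosen after their values were seen). The motifs did not split cleanly by role: Mcm2 had a CHR and no E2F-type match, and Cdk1 and Mki67 had both. Capitals mark every match to any of the motifs.
Mcm6 (chr1:128359656-128359955, minus strand): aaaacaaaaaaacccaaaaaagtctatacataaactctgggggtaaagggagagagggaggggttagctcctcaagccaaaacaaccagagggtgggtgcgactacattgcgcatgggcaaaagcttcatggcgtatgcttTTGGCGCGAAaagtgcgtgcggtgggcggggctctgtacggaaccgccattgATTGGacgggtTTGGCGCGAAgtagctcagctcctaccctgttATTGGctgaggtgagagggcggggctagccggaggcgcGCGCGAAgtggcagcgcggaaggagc
Ccnb2 (chr9:70421505-70421804, minus strand): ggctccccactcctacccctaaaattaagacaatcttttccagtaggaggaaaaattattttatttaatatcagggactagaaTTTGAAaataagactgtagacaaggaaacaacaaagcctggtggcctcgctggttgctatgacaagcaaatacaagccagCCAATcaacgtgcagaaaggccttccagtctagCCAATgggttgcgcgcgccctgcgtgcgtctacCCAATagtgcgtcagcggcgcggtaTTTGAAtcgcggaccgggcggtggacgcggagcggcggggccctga
Top2a (chr11:99024140-99024439, minus strand): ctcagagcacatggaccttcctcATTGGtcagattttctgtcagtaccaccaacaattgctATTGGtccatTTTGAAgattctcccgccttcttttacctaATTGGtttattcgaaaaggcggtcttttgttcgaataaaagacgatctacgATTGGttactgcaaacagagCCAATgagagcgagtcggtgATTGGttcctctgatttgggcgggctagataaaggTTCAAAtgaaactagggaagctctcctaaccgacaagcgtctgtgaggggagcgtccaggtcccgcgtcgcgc
Cenpa (chr5:30666636-30666935, plus strand): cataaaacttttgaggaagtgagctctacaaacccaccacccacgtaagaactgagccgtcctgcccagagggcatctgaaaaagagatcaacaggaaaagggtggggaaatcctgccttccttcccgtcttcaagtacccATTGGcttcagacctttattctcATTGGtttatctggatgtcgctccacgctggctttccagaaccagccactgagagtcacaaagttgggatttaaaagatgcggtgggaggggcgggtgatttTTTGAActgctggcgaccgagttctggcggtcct
Ezh2 (chr6:47594981-47595280, minus strand): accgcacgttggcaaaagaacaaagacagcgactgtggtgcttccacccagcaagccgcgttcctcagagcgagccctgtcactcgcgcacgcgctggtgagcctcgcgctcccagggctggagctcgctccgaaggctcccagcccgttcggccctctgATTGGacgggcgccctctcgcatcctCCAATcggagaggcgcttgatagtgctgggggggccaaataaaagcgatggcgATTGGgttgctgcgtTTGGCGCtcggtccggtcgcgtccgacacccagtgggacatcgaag
The Mcm6 promoter held 5 E2F-type matches and no CHR. In 2 places a match on one strand overlapped one on the other, and these print as a single longer run. Ccnb2 and Top2a held 2 CHR matches each, with 3 and 6 CCAAT boxes, and no E2F-type match. The Cenpa promoter held 1 CHR and 2 CCAAT boxes, and the Ezh2 promoter held 1 E2F-type match and 3 CCAAT boxes.

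**Figure D1:**
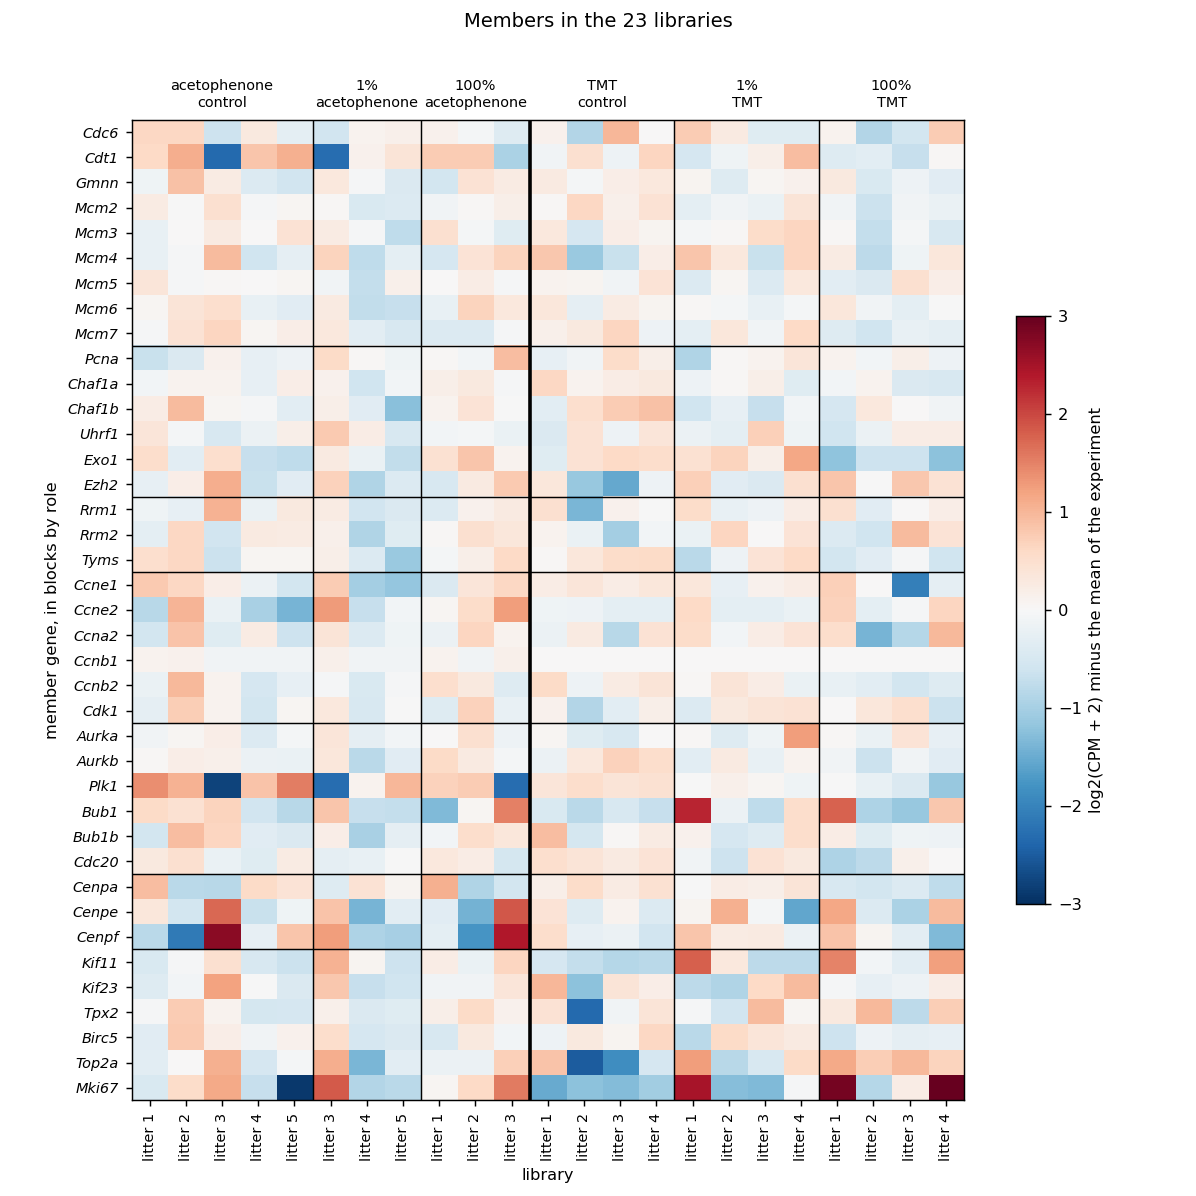
Each row is a member, in blocks by role (origin licensing and helicase, fork and chromatin, deoxynucleotides, cyclins, mitotic kinases, centromere, spindle and chromosome structure), and each column a library. Color gives log2(CPM + 2) minus the member's mean over its own experiment. Plk1 and Cdt1 are low and Cenpf is high in the acetophenone libraries of litter 3, and Mki67 is high in 100% TMT litters 1 and 4 and in 1% TMT litter 1.

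The first comparison asked how the members stood after 100% TMT. In the fit without litter no gene of 13233 was called at an adjusted p under 0.05 (0% of genes tested), and 11 of the 36 members tested had an unadjusted p under 0.05, 3 higher and 8 lower, as had 1944 genes in all. DESeq2 without litter called 3 members, and the share of all genes it called is not given here. With litter as a block, which sets each exposed library against the control of its own litter, 314 genes were called (2.37% of genes tested), and among them were 2 members: Ezh2 rose and Cenpa fell. Calls to the higher side took 1.84% of genes tested and calls to the lower side 0.529%. The median log2 fold change of the 36 members was -0.18 with litter as a block and -0.29 without it, beside 0.02 for all genes in either fit. In every litter 13 members were lower (15.9% of genes tested were) and 4 were higher (13.9% of genes tested were).

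Cenpa, the histone H3 variant that marks centromeres (chr5:30666877-30674837, GRCm38), had 60.8, 57.6, 63.4 and 49.2 CPM in 100% TMT litters 1 to 4, against 96.5, 125, 101 and 117 CPM in the controls of the same litters. All 4 exposed libraries lay below all 4 controls. With litter as a block the log2 fold change was -0.87 ± 0.17 (adjusted p = 0.0309; ± gives the SE beside every log2 value), and without it -0.87 ± 0.17 (adjusted p = 0.123). The adjusted p with the block lay between 0.0603 and 0.160 when any 1 litter was left out, so the call needed all 4 litters.

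Ezh2 (chr6:47530274-47595270, GRCm38) had 136, 75.8, 134 and 103 CPM in 100% TMT, against 96.7, 33.4, 24.8 and 68.2 CPM in the controls. The groups overlapped, but the exposed library was the higher one in each litter, with the largest gap in litter 3. The log2 fold change with the block was 1.24 ± 0.29 (SE; adjusted p = 0.0477) and without it 1.06 ± 0.42 (adjusted p = 0.269). It was 0.81 without litter 3, and leaving out any 1 litter took the adjusted p to between 0.0673 and 0.183.

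Among the spindle and chromosome structure members, 3 were higher in each litter without passing the test. Top2a, topoisomerase II alpha, which untangles sister chromatids, had 55.0, 41.4, 49.0 and 38.9 CPM in 100% TMT, against 44.7, 2.57, 5.11 and 16.3 CPM in controls. The controls differed far more among themselves than the exposed libraries did. Its log2 fold change with the block was 2.23 ± 0.53 (adjusted p = 0.0507), and with the GC and length correction described further on 1.52 ± 0.56 (adjusted p = 0.203). Mki67, the chromosome-coating protein behind the Ki-67 proliferation stain, had 58.9, 2.63, 7.79 and 64.3 CPM in 100% TMT, against 0.955, 1.54, 1.42 and 2.04 CPM in controls. All exposed libraries lay above all controls, but only litters 1 and 4 were far above them, and the control values rest on 4 to 11 counts each. Its log2 fold change with the block was 3.38 ± 0.94 (adjusted p = 0.0772). Kif11, the motor that separates the spindle poles, had 23, 10, 3 and 55 counts in 100% TMT against 3, 2, 1 and 1 counts in controls. Its adjusted p with the block was 0.115, with values too near the counting limit for a stable fold. Birc5, the survivin subunit of the chromosomal passenger complex, was at 37.3 to 52.5 CPM in 100% TMT and at 52.3 to 91.5 CPM in controls, lower in each litter (log2 fold change -0.50 ± 0.22, adjusted p = 0.226). The remaining pair, Kif23 and Tpx2, had values on both sides.

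Origin licensing and helicase members leaned to lower values, and none of the 9 was called. Mcm2 had 80.0, 55.0, 80.1 and 75 CPM in 100% TMT, against 88.4, 134, 97.0 and 118 CPM in controls. The groups did not overlap, and the log2 fold change with the block was -0.53 ± 0.21 (adjusted p = 0.189). Cdt1, which loads the helicase, was lower in each litter by 0.52 ± 0.22 on the log2 scale (adjusted p = 0.223). Mcm3 and Mcm7 were also lower in each litter, while Mcm4, Mcm5 and Mcm6 had log2 fold changes between -0.07 and 0.18. Of the fork and repair members, Exo1, an exonuclease of mismatch repair, had 4.23, 7.39, 7.42 and 4.21 CPM in 100% TMT, against 9.31, 17.6, 19.997 and 18.7 CPM in controls. These did not overlap either, and the log2 fold change was -1.42 ± 0.40 (adjusted p = 0.0821). Chaf1a and Chaf1b, subunits of the chromatin assembly factor that places histones on new DNA, had log2 fold changes of -0.50 each (adjusted p = 0.201 and 0.223) and were lower in each litter. Tyms, which makes thymidylate, was at 21.8 to 33.4 CPM in 100% TMT and at 34.9 to 51.3 CPM in controls (log2 fold change -0.72 ± 0.26, adjusted p = 0.161), whereas Rrm1 and Rrm2 had positive log2 fold changes of 0.32 and 0.51 (adjusted p = 0.484 and 0.608), which turned to -0.35 and -0.03 with the GC and length correction.

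The mitotic entry genes showed the same mixture. Ccnb2 had 83.5, 78.5, 66.8 and 75.1 CPM in 100% TMT, against 147, 88.6, 116 and 129 CPM in controls. The groups did not overlap, with a log2 fold change of -0.59 ± 0.20 (adjusted p = 0.129). Cdk1, the kinase it binds, was at 0.34 ± 0.32 (adjusted p = 0.614). Plk1, the Polo-like kinase, had 32.7, 28.1, 24.1 and 13.9 CPM in 100% TMT, against 43.2, 49.1, 43.8 and 46.3 CPM in controls. All exposed libraries lay below all controls, with a log2 fold change of -0.88 ± 0.26 (adjusted p = 0.0901). Aurkb and Cdc20 had log2 fold changes of -0.61 and -0.79 (adjusted p = 0.204 and 0.166), and Aurka one of 0.30 (adjusted p = 0.666). Ccnb1 could be fitted only in the estimated counts, where with the block its log2 fold change was 1.59 ± 0.47 (adjusted p = 0.0836). Pcna was at -0.01 ± 1.02 in its few unique counts and at -0.41 ± 0.13 in the estimated counts (adjusted p = 0.108).

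**Figure D2:**
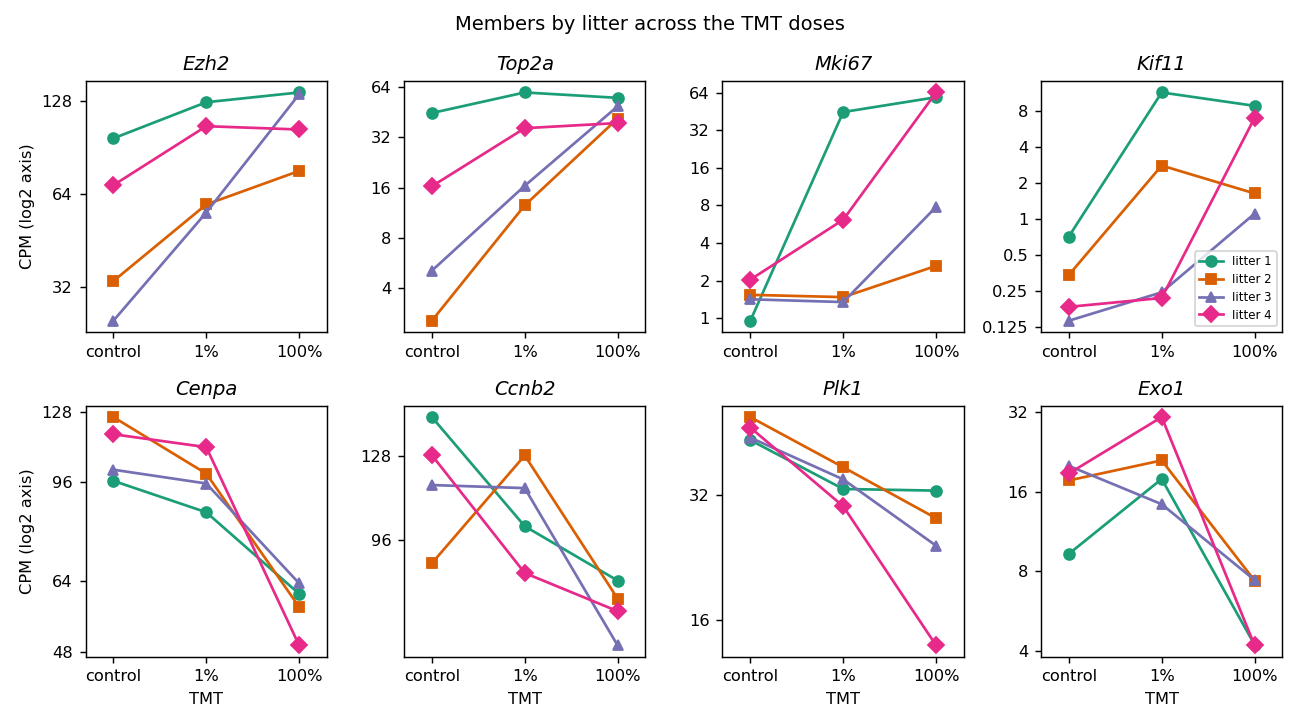
Each panel is a member, with CPM on a log2 axis against TMT control, 1% and 100%, and 1 line per litter. Ezh2, Top2a, Mki67 and Kif11 end higher at 100% than at control in all 4 litters, and Cenpa, Ccnb2, Plk1 and Exo1 end lower.

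Other genes of the cell cycle gave 3 calls in the same fit, in which 2.37% of all genes tested were called. Of 54 other replication genes tested, 1 was called: Nasp, a histone chaperone, rose by 1.46 ± 0.29 on the log2 scale (adjusted p = 0.0309). Of 67 other mitosis genes, 1 was called: Ube2c, the ubiquitin-conjugating enzyme of the anaphase-promoting complex, fell by 0.87 (SE 0.20, adjusted p = 0.0481). Of 13 cell cycle inhibitors and exit genes, 1 was called: Cdkn1a, which encodes p21, fell by 0.87 (SE 0.17, adjusted p = 0.0304). None of 16 genes of the G1 cyclins, their kinases and E2F partners was called. The medians of these lists were -0.18, 0.13, -0.37 and 0.27 beside 0.02 for all genes. With the GC and length correction none of these genes was called: Nasp was at 0.85 ± 0.31, Ube2c at -0.69 ± 0.20 and Cdkn1a at -0.73 ± 0.18 (adjusted p = 0.194, 0.113 and 0.0778), and the median of the other mitosis genes turned to -0.24. Without litter in the fit none was called either, with adjusted p of 0.247, 0.151 and 0.165.

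Markers of cell types moved with the same comparison. The 8 markers of globose basal cells and neuronal progenitors summed to between 447 and 589 CPM in 100% TMT and between 834 and 931 CPM in controls, a difference carried by Hes6, which made up most of the sum and fell by 0.77 (SE 0.16, adjusted p = 0.0325). Hes6 was not called with the GC and length correction (-0.37 ± 0.14, adjusted p = 0.22) or without litter (-0.75 ± 0.17, adjusted p = 0.147). Of the 7 markers tested, 6 had a negative log2 fold change, and their median of -0.71 came to -0.37 with the correction. Lgr5 and Kit were at 0 in some libraries and at most at 5.13 CPM in the TMT experiment. The 10 markers of immature neurons summed to 1361 to 2208 CPM in 100% TMT and 2122 to 3121 CPM in controls, with Tubb3 called (log2 fold change -1.10 ± 0.13, adjusted p = 0.00603), also with the correction (-0.80 ± 0.13, adjusted p = 0.0281) but not without litter (adjusted p = 0.0964). The 10 markers of mature neurons, all tested, summed to 3351 to 4315 CPM in 100% TMT and 1929 to 4263 CPM in controls, with none called. The 8 markers of sustentacular cells, the supporting cells of the epithelium, summed to 10171 to 13030 CPM in 100% TMT and 8083 to 10213 CPM in controls. Of these, 7 had a positive log2 fold change, and the median of the 8 was 0.73. With the block 5 of the positive ones and the 1 negative one had an unadjusted p under 0.05, as had 2593 of all 13233 genes tested. Reg3g, a secreted lectin with antimicrobial action, rose by 3.80 ± 0.74 (adjusted p = 0.03), also with the correction (3.52 ± 0.65, adjusted p = 0.0425) but not without litter (2.84 ± 0.91, adjusted p = 0.201). In the list for muscle, cartilage and bone, Bglap, which encodes osteocalcin, fell by 1.20 (SE 0.24, adjusted p = 0.0325), and was not called with the correction or without litter (adjusted p = 0.0711 and 0.151). None of the other cell type lists held a called gene with the block. Fewer cells of a type and less RNA per cell cannot be told apart in these libraries, and the part of these markers in the members' values was not tested.

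GC content moved with the fold changes as well. Across the 36 members Spearman's correlation between the log2 fold change with the block and the GC content of the transcript was -0.69, and across 13116 genes it was -0.45 (genes are not independent replicates). Of 10 equal bins of genes by GC content, the lowest had a median log2 fold change of 0.72 and the highest one of -0.37. Ezh2, Top2a and Kif11 had GC contents of 44.4%, 43.4% and 42.2%, and Plk1 one of 56.0%, beside a median of 47.8% for the 39 members and 50.7% for genes tested. With a correction for GC content and length in the fit with the block, 148 genes were called (1.12% of genes tested), with Cenpa the 1 member among them, at -1.21 ± 0.20 (adjusted p = 0.0307). Ezh2 came to 0.53 ± 0.32 (adjusted p = 0.457) and was no longer called, and the median of the members came to -0.38.

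**Figure D3:**
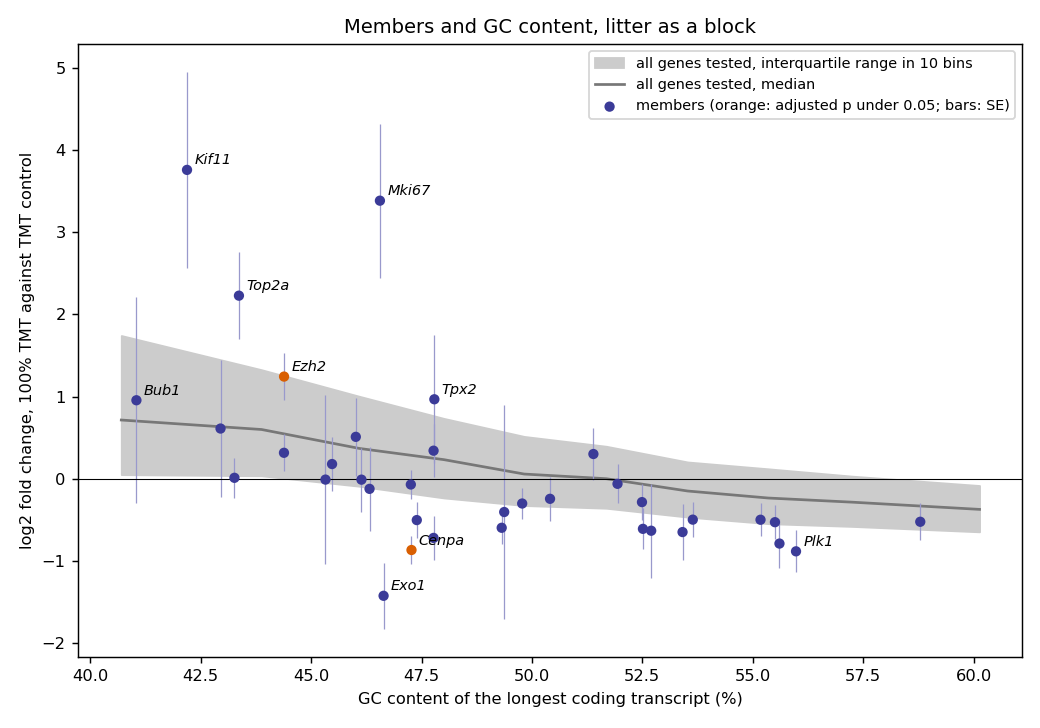
Points are the 36 members tested, with the log2 fold change of 100% TMT against TMT control (litter as a block, bars SE) plotted on the GC content of the transcript. The band and line give the interquartile range and the median of all genes in 10 bins by GC content, with medians of 0.72 in the lowest bin and -0.37 in the highest. Cenpa and Exo1 lie below the band at 47.3% and 46.6% GC.

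At 1% TMT no member was called in either fit, with 1 gene called with litter as a block (0.00756% of genes tested) and none without it (0%). Without adjustment 4 members in either fit had a p under 0.05, as had 947 genes in all with the block. DESeq2 with the block called 1 member, Chaf1b, and the share of all genes it called is not given here. Both TMT doses share the same controls, so their values are only set side by side. Chaf1b had 56.6, 72.9, 52.8 and 81.8 CPM at 1% TMT, against 69.0, 124, 148 and 161 CPM in controls, lower in each litter (log2 fold change with the block -0.86 ± 0.21, adjusted p = 0.577). Ezh2 had 127, 59.1, 55.6 and 106 CPM at 1% TMT, higher than the control in each litter (0.74 ± 0.28, adjusted p = 0.694). Cenpa had 84.8, 99.4, 95.4 and 111 CPM, close to its controls but lower in each litter (-0.14 ± 0.17, adjusted p = 0.901). With the GC and length correction Cenpa was at -0.39 ± 0.20 (adjusted p = 0.841). Top2a had 59.3, 12.5, 16.4 and 36.2 CPM, higher than the control in each litter (1.21 ± 0.49, adjusted p = 0.694). Kif11 had 34, 19, 2 and 2 counts against 3, 2, 1 and 1 in controls (adjusted p = 0.694). Mki67 was at 44.8 CPM in litter 1 and at 1.35 to 6.15 CPM in the others. Chaf1a and Mcm2 followed Chaf1b on the lower side, at -0.38 ± 0.20 and -0.35 ± 0.21 (adjusted p = 0.779 and 0.784). The members' median log2 fold change was -0.07 with the block, beside 0.03 for all genes. Spearman's correlation of this fold change with GC content was -0.67 across the members and -0.36 across all genes. With the GC and length correction Ezh2 came to 0.29 ± 0.31 and Top2a to 0.73 ± 0.53 (adjusted p = 0.949 and 0.899), while Chaf1b was at -0.80 ± 0.22 (adjusted p = 0.759). With the correction 2 members, both lower, had an unadjusted p under 0.05, as had 810 genes in all.

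Set directly against 1% TMT, 100% TMT gave no called gene in either fit (0% of genes tested), and 4 members had an unadjusted p under 0.05, all lower, as had 1068 genes in all with the block. Exo1 had 4.23, 7.39, 7.42 and 4.21 CPM at 100% TMT, against 17.8, 21.0, 14.3 and 30.5 CPM at 1% TMT, without overlap (log2 fold change with the block -1.83 ± 0.41, adjusted p = 0.433). Cenpa was also lower at 100% than at 1% in every litter (-0.72 ± 0.17, adjusted p = 0.468), and Mki67 was higher in every litter (1.76 ± 0.83, adjusted p = 0.627). Mcm3 was at -0.61 ± 0.22, Top2a at 1.02 ± 0.49 and Ezh2 at 0.51 ± 0.28 (adjusted p = 0.566, 0.631 and 0.653), and Ezh2 came to 0.24 ± 0.31 with the GC and length correction. DESeq2 called Exo1 and Cenpa in this comparison with and without the block, and the share of all genes it called is not given here.

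Acetophenone gave no called member at either dose. At 100% acetophenone 11 genes of 11564 were called with litter as a block (0.0951% of genes tested) and none without it (0%), and no member of the 35 tested had an unadjusted p under 0.05, beside 610 genes in all with the block. DESeq2 called no member in either fit. Mcm7 was at 12.1, 12.1 and 16.1 CPM in 100% acetophenone litters 1 to 3, against 16.2, 23.2 and 27.2 CPM in their controls. In these unique counts it was lower in each litter (log2 fold change with the block -0.72 ± 0.33, adjusted p = 0.897). In estimated counts Mcm7 was also lower in litters 2 and 3, at 276 and 220 against 377 and 425. In litter 1 it had 363 of 4145152 estimated counts against 380 of 5128154 in the control, so its direction there depended on the counts used. Mki67 was at 52.4, 77.4 and 154 CPM in 100% acetophenone, against 36.3, 75.2 and 113 CPM in controls, higher in each litter though barely so in litter 2 (0.32 ± 0.20, adjusted p = 0.897). Cenpe, a kinesin of the kinetochore, was at -0.50 ± 0.33, Gmnn at -0.32 ± 0.22, Rrm2 at 0.40 ± 0.39 and Ccne2 (cyclin E2) at 0.95 ± 0.73, with adjusted p between 0.897 and 0.917. Ezh2 was at 92.1, 158 and 224 CPM in 100% acetophenone, against 109, 149 and 281 CPM in controls, and Cenpa was at 47.6, 10.7 and 14.1 CPM, against 42.9, 11.6 and 11.4 CPM. Their levels differed more between litters than within a litter. The median log2 fold change of the members was -0.07, beside 0.01 for all genes.

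At 1% acetophenone 34 members were tested, and 1 gene of 12077 was called with litter as a block (0.00828% of genes tested), none without it (0%). With the block 6 members had an unadjusted p under 0.05, all lower, as had 1028 genes in all. DESeq2 with the block called 1 member, Cenpf, and the share of all genes it called is not given here. Cenpf was at 202, 42.8 and 40.4 CPM in 1% acetophenone litters 3 to 5, against 551, 70.1 and 149 CPM in their controls. It was lower in each litter, while its level in litter 3 exceeded that of every other litter in both groups (log2 fold change with the block -1.34 ± 0.22, adjusted p = 0.291). Rrm1 was at 125, 70.9 and 77.8 CPM in 1% acetophenone, against 220, 91.6 and 130 CPM in controls, again lower in each litter (-0.63 ± 0.15, adjusted p = 0.367). Mcm2 was at 66.5, 46.8 and 48.3 CPM, against 90.5, 62.9 and 66.9 CPM (-0.43 ± 0.15, adjusted p = 0.49). On the higher side Mki67 was at 0.80 ± 0.39, Kif11 at 0.54 ± 0.41 and Gmnn at 0.21 ± 0.18 (adjusted p = 0.62, 0.76 and 0.792). In all, 10 members were lower in every litter (16.2% of genes tested were), among them 5 of the helicase subunits, and the median was -0.25 beside 0.01 for all genes. Without the 1% library of litter 3 the median in the fit without the block was -0.63, and without the control of litter 3 it was 0.061, against -0.17 with all libraries. The acetophenone doses share only litter 3, and set against each other with litter as a block they gave no called gene (0% of genes tested). Cenpf was 1.41 ± 0.29 higher at 100% than at 1% on the log2 scale (adjusted p = 0.68). DESeq2 called it, again without the share of all genes given here. Without adjustment 2 members had a p under 0.05, both higher, as had 807 genes in all. The second was Cdt1 at 1.10 ± 0.45 (adjusted p = 0.785), and Rrm2 was at 0.65 ± 0.49. Gmnn, Cdk1 and Mki67 were at -0.41, -0.34 and -0.43 here, and their signs reversed without litter in the fit.

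Whether the members answered TMT differently from acetophenone was tested by subtracting the log2 fold change for acetophenone from that for TMT at the same dose. At 100%, 9 genes were called with litter as a block (0.0691% of genes tested), none without it (0%), and no member in either fit. With the block 6 members had an unadjusted p under 0.05, as had 1448 genes in all. DESeq2 with the block called 1 member, and the share of all genes it called is not given here. Mki67 had the smallest p, with a log2 difference between responses of 3.39 ± 0.90 (adjusted p = 0.197), followed by Cenpa at -1.0 ± 0.31 (adjusted p = 0.277) and Ezh2 at 1.37 ± 0.44 (adjusted p = 0.282). Top2a was at 2.28 ± 0.76, Exo1 at -1.70 ± 0.62 and Chaf1a at -0.62 ± 0.30 (adjusted p = 0.304, 0.338 and 0.477). With the GC and length correction Ezh2 came to 0.76 ± 0.50 and Chaf1a to -0.37 ± 0.31 (adjusted p = 0.657 and 0.752). So the call of Ezh2 and Cenpa with TMT under the litter block, and not with acetophenone, is not shown to be a difference between the odors. At 1% no gene was called in either fit (0%), while 4 members had an unadjusted p under 0.05 with the block, as had 582 genes in all. DESeq2 with the block called 1 member at 1%, also without the share of all genes given here. The member with the smallest p was Cenpf, at 1.76 ± 0.29 (adjusted p = 0.386). Top2a was at 1.68 ± 0.45 and Ezh2 at 0.99 ± 0.24, and on the lower side Gmnn was at -0.43 ± 0.25, Chaf1b at -0.50 ± 0.38 and Cdc20 at -0.37 ± 0.40 (adjusted p = 0.999 for each).

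The litters differed far more than the doses in the acetophenone experiment. With group in the model, 6418 genes of 12873 differed between litters (49.9% of genes tested), and 18 of the 35 members tested were among them. The share of members was near that of all genes. Cenpf was at 551, 202 and 445 CPM in the control, 1% and 100% libraries of litter 3, and between 17.4 and 149 CPM in the other 8 libraries (adjusted p = 3.49e-06). Ezh2 was at 281, 211 and 224 CPM in litter 3 and between 68.4 and 158 CPM elsewhere (adjusted p = 0.000126). Mki67 was at 113, 185 and 154 CPM in litter 3 and between 5.10 and 77.4 CPM elsewhere (adjusted p = 0.000674). Plk1 went the other way. It had 0, 2 and 2 counts in litter 3, where a count of 0 allows up to 3 counts, or 1.10 CPM, while the other 8 libraries were between 12.7 and 37.4 CPM (adjusted p = 0.000179). Cdt1 was at 2.21, 2.36 and 8.88 CPM in litter 3 and between 21.1 and 42.7 CPM elsewhere (adjusted p = 0.00102). The other members called were Top2a, Cenpa, Cenpe, Mcm4, Mcm6, Cdk1, Gmnn, Kif23, Bub1, Bub1b, Rrm1, Chaf1b and Tpx2, with adjusted p between 0.000323 and 0.042. Without litter 3, 4 of 36 members tested were called between litters, beside 18.2% of all genes tested, so the calls fell among all genes as well.

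Cell type markers differed between these litters too. Of the globose basal and progenitor markers 5 of 7 tested were called, of the mature neuron markers 9 of 10, of the ciliated cell markers 6 of 6 and of the sustentacular markers 4 of 8, beside 49.9% of all genes. The 8 progenitor markers summed to 107 to 180 CPM in the 5 libraries of litters 2 and 3 and to 392 to 566 CPM in the other 6. The 10 mature neuron markers summed to 3886 to 4422 CPM in litter 3 and to 4346 to 7408 CPM elsewhere. The 6 ciliated cell markers summed to 1285 and 1344 CPM in litter 2 and to 709 to 1013 CPM elsewhere. The part of these markers in the members' values was not tested. Among single progenitor genes (chosen after their values were seen), Hes6 was at 90.9, 81.5 and 68.2 CPM in the control, 1% and 100% libraries of litter 3 and at 124 and 93.8 CPM in those of litter 2 (control and 100%), while the other 6 libraries were between 285 and 459 CPM. Neurog1, a neuronal progenitor factor, had at most 1.03 CPM in litters 2 and 3 and at least 8.78 CPM elsewhere. Cdkn1a, of the cell cycle inhibitors, was at 2.58 to 5.51 CPM in litter 3. By the code series in the library titles, litters 2 and 3 share a series, as do litters 4 and 5, and litter 1 is alone. Cenpf, Plk1 and Cdt1 in litter 3 stood apart from litter 2 of the same series, whereas for Hes6 and Neurog1, low in both litters, litter and series cannot be told apart. In the TMT experiment litter 1 is of another code series than litters 2 to 4, so for litter 1 the litter and the series cannot be told apart. Between the TMT litters 97 genes differed (0.733% of genes tested) and no member was called, with 8 members and 2125 genes at an unadjusted p under 0.05. Cenpf had the smallest p of the members in this edgeR fit (adjusted p = 0.0836). DESeq2 called 6 members, and the share of all genes it called is not given here.

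**Figure D4:**
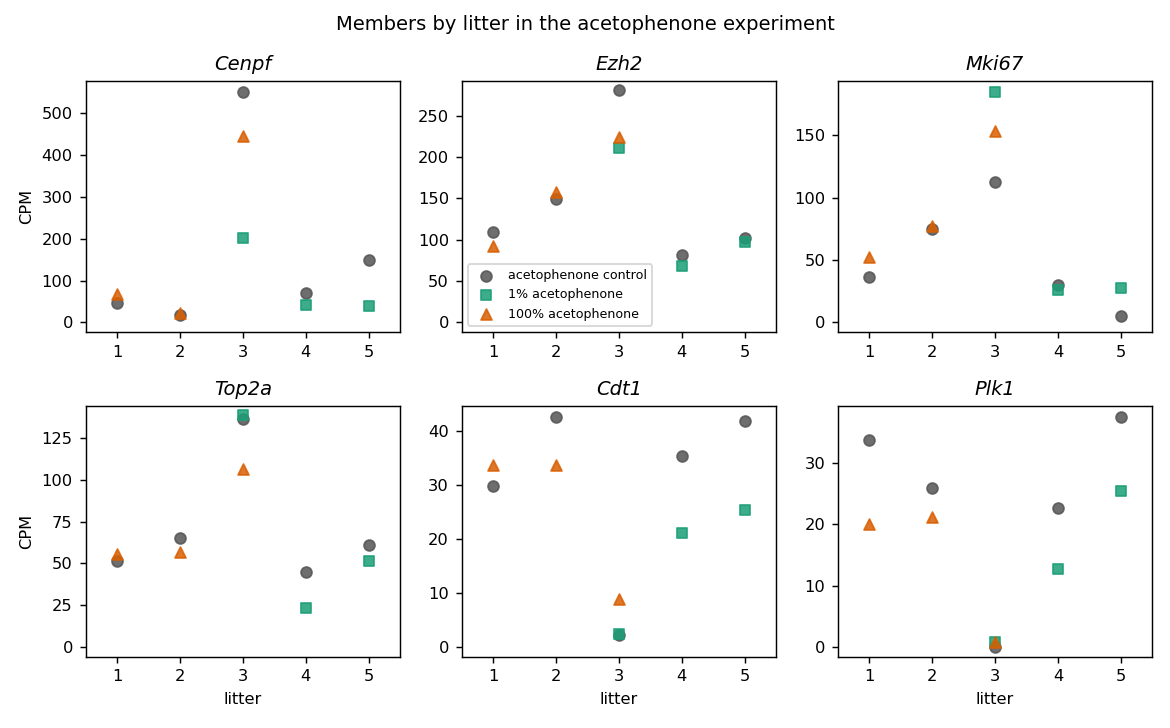
Each panel is a member, with CPM plotted by litter and the control, 1% and 100% acetophenone libraries as separate symbols. Cenpf, Ezh2, Mki67 and Top2a are high and Cdt1 and Plk1 are low in the libraries of litter 3, whichever the dose.

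The control groups of the experiments differed too. TMT controls against acetophenone controls gave 1779 called genes of 12315, 5.68% of genes tested on the higher and 8.76% on the lower side. Of the 35 members tested, 7 were higher and 3 lower in TMT controls. Cenpa averaged 110 ± 13.4 CPM in TMT controls (SD, n = 4) and 25.9 ± 13.9 CPM in acetophenone controls (SD, n = 5), without overlap (log2 fold change 2.07 ± 0.40, adjusted p = 0.0112). Birc5 was at 52.3 to 91.5 CPM in TMT controls and at 14.0 to 33.1 CPM in acetophenone controls (1.70 ± 0.32, adjusted p = 0.0102). Tyms, Chaf1b, Cdc20, Ccnb2 and Aurkb had log2 fold changes of 1.61, 1.60, 1.18, 1.17 and 1.17 in the same direction. With the GC and length correction Cdc20 came to 0.65 ± 0.32 and Aurkb to 0.96 ± 0.29 (adjusted p = 0.206 and 0.0508), and these were no longer called.

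The lower members were Mki67, Bub1 and Kif11. Mki67 was at 0.955 to 2.04 CPM in TMT controls and at 5.10 to 113 CPM in acetophenone controls (log2 fold change -5.12 ± 0.82, adjusted p = 0.00651). Bub1, a kinase of the spindle checkpoint, had 5, 3, 8 and 4 counts in TMT controls and 33 to 88 counts in acetophenone controls (-4.53 ± 0.58, adjusted p = 0.00313). Kif11 followed at -3.87 ± 0.76 (adjusted p = 0.0116), a fitted value that depends on the prior count because the TMT controls held 1 to 3 counts each. These members have GC contents of 46.6%, 41.0% and 42.2%. Across the members Spearman's correlation of this fold change with GC content was 0.67, and across 12212 genes 0.49. With a correction for GC content and length 1343 genes were called (10.9% of genes tested), and 5 members were higher and the same 3 lower. Without the TMT control of litter 3 the number of members called was 6, and without that of litter 4 it was 5. The share of all genes called in those fits is not given here, so these counts are not read as a result about the members. The code series YJA is the only one that both experiments hold, with 1 TMT control and 2 acetophenone controls. In that fit 1 member was called, beside 0.926% of all genes tested, but with a lone TMT control, assumed to vary like the others, the count says little about the members. Markers moved with this comparison as well. The 8 globose basal and progenitor markers summed to 834 to 931 CPM in TMT controls and to 126 to 514 CPM in acetophenone controls. Most of each of these sums came from Hes6, so they say little about the other progenitor markers. The 8 sustentacular markers summed to 8083 to 10213 CPM in TMT controls and to 10683 to 16765 CPM in acetophenone controls. The part of these markers in the members' values was not tested. The experiments differ in litters and, but for the libraries of series YJA, in library series, and with 1 TMT control in the shared series these cannot be told apart.

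**Figure D5:**
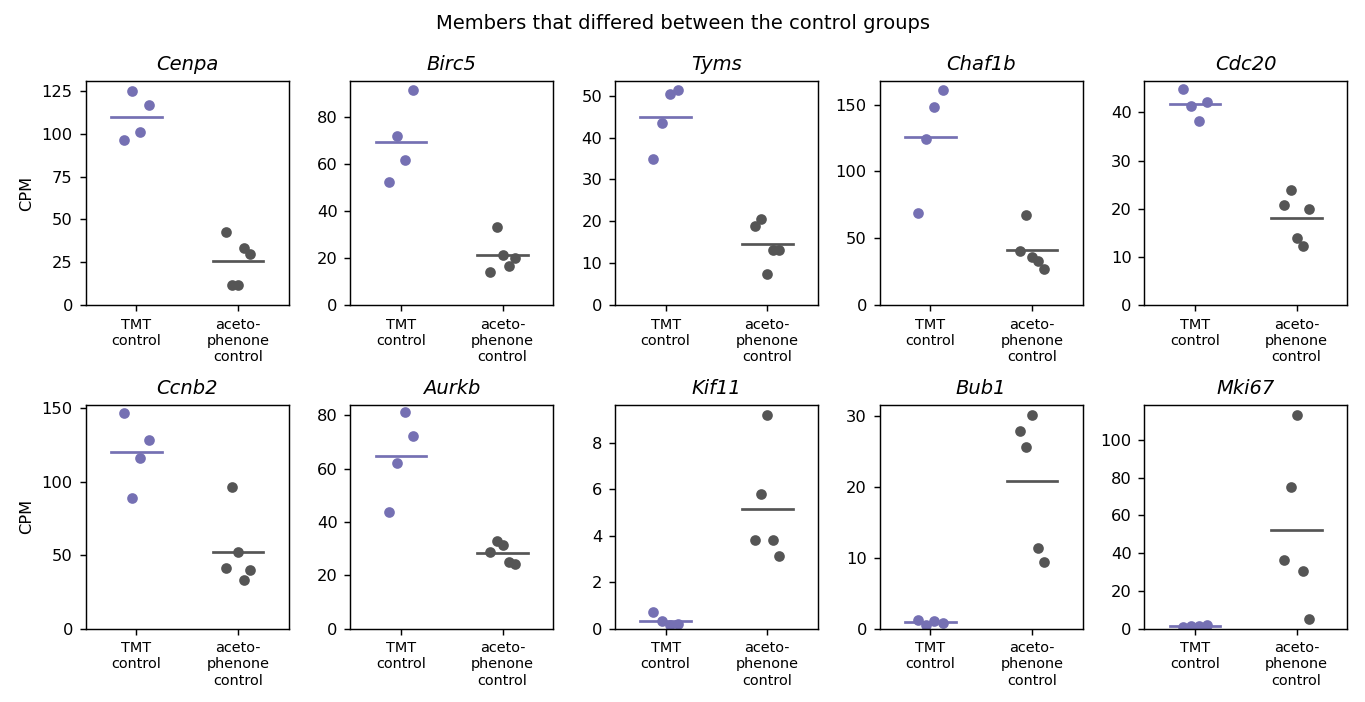
Each panel is 1 of the 10 members called between the control groups, with CPM of the 4 TMT control libraries on the left and the 5 acetophenone control libraries on the right, and a line at the mean. In Kif11, Bub1 and Mki67 all TMT controls lie below all acetophenone controls, and in the other 7 all TMT controls but 1 Ccnb2 library lie above them.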

How the data were processed

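RNA pulled down with pS6 was sequenced in 23 libraries. The authors used Bowtie and bedtools with the mm10 build, per the submitters' processing notes; which version each had, what each did and which genes were annotated is not given in the sources used here. The deposited tables have no header, so the columns were read from their values: the first value column holds whole counts, taken as uniquely aligned reads, and the last holds estimated counts, which are never below the first and include multiply aligned reads. The 18 value columns between them were not used. Estimated counts were rounded before fitting.

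Counts were filtered with filterByExpr (minimum count 10), scaled by TMM and tested with the quasi-likelihood test of edgeR 4.0.16 in R 4.3.3, with p-values adjusted by Benjamini-Hochberg across every gene in a fit and calls at an adjusted p under 0.05. CPM values use the TMM-scaled library size. DESeq2 1.42.0 served as an alternative, and limma 3.58.1 was loaded with edgeR. Members called by DESeq2 are counted without the share of all genes it called, so these counts cannot be set beside the edgeR shares. Fits were made without litter and with litter as a block, since the labels give the litter; same-litter libraries correlated in their deviations from the group means at 0.05 to 0.29 for 100% TMT, 0.015 to 0.34 for 1% TMT, -0.037 to 0.37 for 100% against 1% TMT, 0.56 to 0.79 for 100% acetophenone and 0.71 to 0.88 for 1% acetophenone. Litters 3 and 4 at 1% TMT, and litter 4 between the TMT doses, correlated more with another litter than with their own. All 12 TMT libraries shared a fit. The fit without litter was the main one for each dose against its controls, between the TMT doses and between the responses. The block was an alternative there. GC content and length came from the longest coding transcript of each gene in the GRCm38 annotation and were corrected with splines of 5 degrees of freedom. The edgeR fits of 100% TMT and of 100% acetophenone against control, with and without the block, were tested on simulated data. The GC and length correction, the response differences, the litter tests and DESeq2 were not tested in this way.

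The members and lists were chosen with earlier results of these data known. Named members are those called, the 3 with the smallest p in each direction, the 5 with the highest level and those under the filter; any others were added after their values were seen. The p-values measure only the spread between these libraries, and a count of 0 allows up to 3 counts, by counting error only.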

Additional observations from a re-analysis of the deposited data

Results flagged for a closer look

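For each member and for the members' sum, each group of 4 or 5 libraries was checked for a library far from the others, and 11 of the 157 sets whose values were not all equal had one; chance gives about 1 in 20. In the acetophenone controls, 5 of these were the library of litter 3, which stood above the other 4 controls. There Cenpf was at 551 CPM with the nearest control at 149 CPM, and Top2a was at 136 CPM with the nearest at 64.9 CPM. Mcm4 was at 104 CPM with the nearest at 51.6 CPM, Kif23 at 55.2 CPM with the nearest at 22.6 CPM, and Cenpe at 54.4 CPM with the nearest at 19.4 CPM. In the acetophenone control of litter 1, Mcm5 was at 57.9 CPM with the nearest at 46.5 CPM.

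The other 5 were 1% TMT libraries, spread over all 4 litters. Mki67 was at 44.8 CPM in litter 1 with the nearest at 6.15 CPM, and Ccne2 was at 1.68 CPM in litter 1 with the nearest at 0.110 CPM. Gmnn was low in litter 2, at 46.2 CPM with the nearest at 63.5 CPM. Uhrf1 was at 2.94 CPM in litter 3 with the nearest at 0.769 CPM, and Aurka was at 103 CPM in litter 4 with the nearest at 43.1 CPM.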

How the results depend on the processing

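The number of members called for 100% TMT against TMT control depended on the fit: 0 in edgeR without litter, 2 with the replicate block, 1 with the block and the GC and length correction, 3 in DESeq2 without the block and 7 with it. With the block it was 3 with DESeq2 size factors, 4 with no filter and 3 with estimated counts. These fits with the block and another tool, scaling, filter or count were chosen after seeing the data. The share of all genes called in the DESeq2 fits and in these alternatives is not given here. The counts are therefore not read as a result about the members. Leaving out 1 litter under the block gave 0 to 1 members, with the median between -0.31 and -0.10; leaving out 1 library without it gave medians between -0.34 and -0.11. Over 11 settings Ezh2 lay between 0.53 and 1.25 and Cenpa between -1.21 and -0.85. DESeq2 called 1 member for 1% TMT under the block, 2 for 100% against 1% TMT with and without it, 1 for 1% acetophenone under it, 1 for 100% against 1% acetophenone, 1 for each response difference under it and 6 between TMT litters. The 100% response difference also gave 1 without the filter under the block, and its median was -0.28 with the GC and length correction.

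Without 1 library, the median for 1% acetophenone lay between -0.63 and 0.061, for the 100% response difference between -0.14 and 0.18 (under the block -0.21 to -0.03, with -0.16 without TMT litter 2 and -0.17 without TMT litter 3) and for the 1% response difference between -0.011 and 0.55. Between control groups, 1 member was called when only libraries of the code series YJA were used (1 TMT control against 2 acetophenone controls, chosen after seeing the data), and 5 to 11 when 1 library was left out. Between acetophenone litters the count was 4 to 19 when 1 litter was left out. The share of all genes called is not given beside these ranges, so they are not read as a result about the members. Signs reversed for 100% against 1% acetophenone without the replicate block in Gmnn (0.10), Cdk1 (0.11) and Mki67 (0.23). Leaving out 1 library gave both signs for 100% acetophenone in Mki67 (-0.27 to 0.81) and Cenpe (-1.88 to 0.87), and for 1% acetophenone in Mki67 (-0.87 to 2.17), Kif11 (-0.13 to 1.22) and Gmnn (-0.038 to 0.50). The causes were not tested. Members with few unique counts are limited in different ways. Ccnb1, Pcna and Uhrf1 had far fewer unique than estimated counts, so most of their reads had several alignments. Ccne2 had the same few counts in both.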

Other observations

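Other cell cycle genes also differed between the control groups. Of 66 other mitosis genes tested, 7 were higher and 4 lower in TMT controls than in acetophenone controls, beside 5.68% higher and 8.76% lower of all genes tested. Cks1b, a subunit that binds cyclin-dependent kinases, was higher by 1.63 ± 0.29 on the log2 scale (SE; edgeR adjusted p = 0.00853), and the centromere genes Cenpm and Cenpw had log2 fold changes of 2.14 and 2.20. Knstrn and Cdca8, of the spindle and the chromosomal passenger complex, had 1.92 and 1.45. Anln, Nuf2, Shcbp1 and Ttk were lower, with log2 fold changes of -3.60, -3.80, -3.76 and -3.60. Of 51 other replication genes tested, 4 were higher (Gins2, Gins4, Rpa2 and Dut, between 1.10 and 1.85) and 2 were lower (Atad2 at -2.46 and Nasp at -2.02). Cdkn1a, Cdk4 and Rbl1 were called as well, at 2.04, 0.93 and -2.31. With the GC and length correction 785 genes were called higher and 558 lower of the 12315 tested. In that fit the other mitosis genes gave 11 higher and 2 lower calls and the other replication genes 5 higher and 0 lower. Shcbp1, Ttk, Atad2, Nasp, Gins4, Cdk4 and Rbl1 were no longer called. These control groups come from separate experiments and share only library series YJA, with 1 TMT control and 2 acetophenone controls, so experiment and library series cannot be told apart in most of them.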
